A study of Homo sapiens with 10 samples.

Results

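The interferon response mRNAs described here are the transcripts of 9 genes: the effectors ISG15, IFI6, IFI27, IFITM1, IFITM2 and IFITM3, and the transcription factors STAT2, IRF1 and IRF9. They were taken by gene symbol of GENCODE release 29 from a table of RNA sequencing read counts, where they are 9 of 94946 entries. The table covers PC3, an established line of prostate cancer epithelial cells derived from a bone metastasis, and the extracellular vesicles (EVs) that these cells release. The vesicles were spun down at 3 speeds, written as 2.8K, 10K and 100K in the labels with the unit left out, and each pellet is named by its speed (EV 2.8K, EV 10K, EV 100K). Each pellet has 3 libraries, numbered as sets 1 to 3, and whole PC3 cells have 1 library. All groups come from the same untreated line grown in medium with fetal bovine serum, with no genetic change or drug named, and the labels do not say whether the sets came from separate cultures. The p-values therefore measure the spread between these libraries, which may be technical. A pellet is a sedimentation fraction and not a purified vesicle type, since particles of different kinds can sediment together.

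Interferons are secreted proteins that cells release on sensing viral or other foreign nucleic acid. Type I interferons bind a receptor whose kinases, JAK1 and TYK2, activate STAT2 and other STAT proteins. STAT2 and IRF9 are parts of the complex ISGF3, which binds DNA at the interferon-stimulated response element (ISRE). Interferon gamma works mainly through another DNA element, the gamma-activated site (GAS). The induced effectors block steps of viral infection, and many tumour lines transcribe some of them without added interferon.

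The members are spread over 5 chromosomes of GRCh38, the build of the deposited counts. ISG15 lies at chr1:1001138-1014540 on the plus strand and IFI6 at chr1:27666061-27672218 on the minus strand. IFI27 lies at chr14:94104836-94116698 (plus) and IRF9 at chr14:24161053-24166565 (plus). The IFITM genes are neighbours on chromosome 11, with IFITM2 at chr11:307631-315272 (plus), IFITM1 at chr11:313506-315272 (plus) and IFITM3 at chr11:319669-327537 (minus). STAT2 lies at chr12:56341597-56360155 (minus) and IRF1 at chr5:132481609-132490798 (minus). The values of a gene are counts over its exons.

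The elements through which interferon acts on these genes can be read in their promoters. RefSeq promoter windows of 300 bases (250 before and 50 after the gene start, GRCh38.p14) matched 8 of the 9 members by symbol, and IFITM2 had no entry. Their gene starts are not those of the GENCODE spans above. The stretches shown for ISG15, IFI27, IFITM1, IFITM3 and IRF9 lie inside these spans. The ISRE core was searched as GAAA, any 2 bases and GAAA again, and the GAS as TTCNNNGAA, both on both strands, where matches may overlap. The ISRE core was found in 5 of the 8 windows (ISG15, IFI6, IFI27, IFITM1 and IFITM3), against 3.65% of all 27305 windows. The GAS was found in 4 of the 8 (IFI27, IFITM1, IRF1 and IRF9), against 7.88% of all windows. The stretches below are shown because the ISRE core separates the 5 effectors that had a window from IRF1 and IRF9. The windows of IRF1 and IRF9 hold a GAS only, while those of IFI27 and IFITM1 hold both motifs. They are written 5′ to 3′ on the gene's strand with up to 25 bases on either side, and capitals mark the ISRE core, or for IRF1 and IRF9 the GAS.
ISG15, chr1:1013359-1013424, plus strand: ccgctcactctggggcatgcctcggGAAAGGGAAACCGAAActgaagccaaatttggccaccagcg
IFI6, chr1:27672251-27672373, minus strand: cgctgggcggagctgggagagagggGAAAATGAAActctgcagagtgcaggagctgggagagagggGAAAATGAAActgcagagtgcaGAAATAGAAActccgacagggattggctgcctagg
IFI27, chr14:94110603-94110675, plus strand: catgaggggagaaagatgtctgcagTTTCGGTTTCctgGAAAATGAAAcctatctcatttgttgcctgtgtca
IFITM1, chr11:313975-314043, plus strand: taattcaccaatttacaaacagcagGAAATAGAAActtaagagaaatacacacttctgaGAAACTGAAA
IFITM3, chr11:320861-320937, minus strand: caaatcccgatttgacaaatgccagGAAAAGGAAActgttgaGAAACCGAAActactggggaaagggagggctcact
IRF1, chr5:132490864-132490922, minus strand: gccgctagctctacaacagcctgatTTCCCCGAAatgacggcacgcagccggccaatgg
IRF9, chr14:24161177-24161235, plus strand: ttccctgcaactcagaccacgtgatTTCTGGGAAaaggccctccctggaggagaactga
IFI6 held 3 ISRE cores, and ISG15, IFI27, IFITM1 and IFITM3 held 2 each. In ISG15 the cores overlapped by 4 bases, and in IFI27 the cores stood on opposite strands. The GAS of IFI27 and that of IFITM1 overlap the ISRE stretch shown for these genes. The STAT2 window held neither motif. A match is a description of the letters in the window and not a measured binding site.

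Total counts were 10288246 to 14977955 per EV 2.8K library, 7933251 to 10864958 per EV 10K library, 5424964 to 8083438 per EV 100K library and 28735081 in cells. The 9 members together took 0.0333%, 0.0515% and 0.0737% of all counts in EV 2.8K sets 1, 2 and 3, and 0.0223%, 0.0465% and 0.0468% in EV 10K. They took 0.00736%, 0.0142% and 0.0127% in EV 100K, and 0.0233% in cells. All 3 EV 100K libraries were thus below every other library, and set 1 was the lowest of each pellet. The 6 epithelial and PC3 markers (KRT8, KRT18, KRT19, EPCAM, VIM and CD44) had counts in every group, and KLK3, which PC3 cells are known to lack or barely express, was at 0 in all groups. STAT3, known to be deleted in PC3, had 0 counts in all 10 libraries. PTPRC and CD3E, which define leukocytes and T cells, were at 0 in all groups, and the summed leukocyte markers reached at most 6.89 CPM (counts relative to a library total of 1e+06) in a library.

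Levels are given below as CPM, after TMM scaling over the 10 libraries. CPM are shares of a library, so fewer vesicles with an mRNA, less of it per vesicle and more of other RNA cannot be told apart. Other measures fell with the members from EV 2.8K to EV 100K. Mitochondrially encoded RNA took 4.81 to 12.9% of counts in EV 2.8K, 0.826 to 1.04% in EV 10K and 0.00544 to 0.00802% in EV 100K. The summed PC3 markers were at 2641 to 3459 CPM in EV 2.8K, 2033 to 2645 in EV 10K and 976 to 1163 in EV 100K, against 2079 in cells. Their part in the results was not tested. Without the mitochondrially encoded genes, the same number of members passed in EV 100K against EV 2.8K (5). Leaving these genes out of the fit cannot test what else differs between the pellets.

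Of the 9 members, 8 had enough counts for the test between pellets. IFI27 did not, and IRF9 passed only through EV 2.8K, where it is high. Tests used edgeR's quasi-likelihood F-test on the 9 EV libraries with Benjamini-Hochberg adjustment over all 15525 genes tested, and a member was called at an adjusted p below 0.05. In EV 100K, 5 of the 8 tested members (ISG15, IFI6, IFITM2, IFITM3 and IRF1) were lower than in EV 2.8K and 0 were higher. Over all genes tested, 13.8% were lower and 12% higher in this comparison. Against EV 10K, 3 of the 8 (ISG15, IFITM2 and IFITM3) were lower in EV 100K, where the background was 7.23% lower and 3.7% higher. Between EV 10K and EV 2.8K, edgeR called 0 of the 8, where 6.38% of all genes were called (4.15% higher and 2.22% lower). DESeq2 also called 0. An unadjusted edgeR p below 0.05 was found for 2 of the 8 members, STAT2 and IRF1, beside 3217 of all 15525 genes. The median log2 fold change of all genes tested was -0.01, -0.06 and 0.01 for EV 10K against EV 2.8K, EV 100K against EV 2.8K and EV 100K against EV 10K. The joint test for any difference between the pellets passed the same 5 members, where 23.3% of all genes passed. The number lower in EV 100K than EV 2.8K was 3 without EV 2.8K set 3 or EV 100K set 1, and 3 passed the joint test without EV 100K set 1 or 3. STAT2 was called in EV 10K against EV 2.8K without EV 2.8K set 1.

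**Figure D1:**
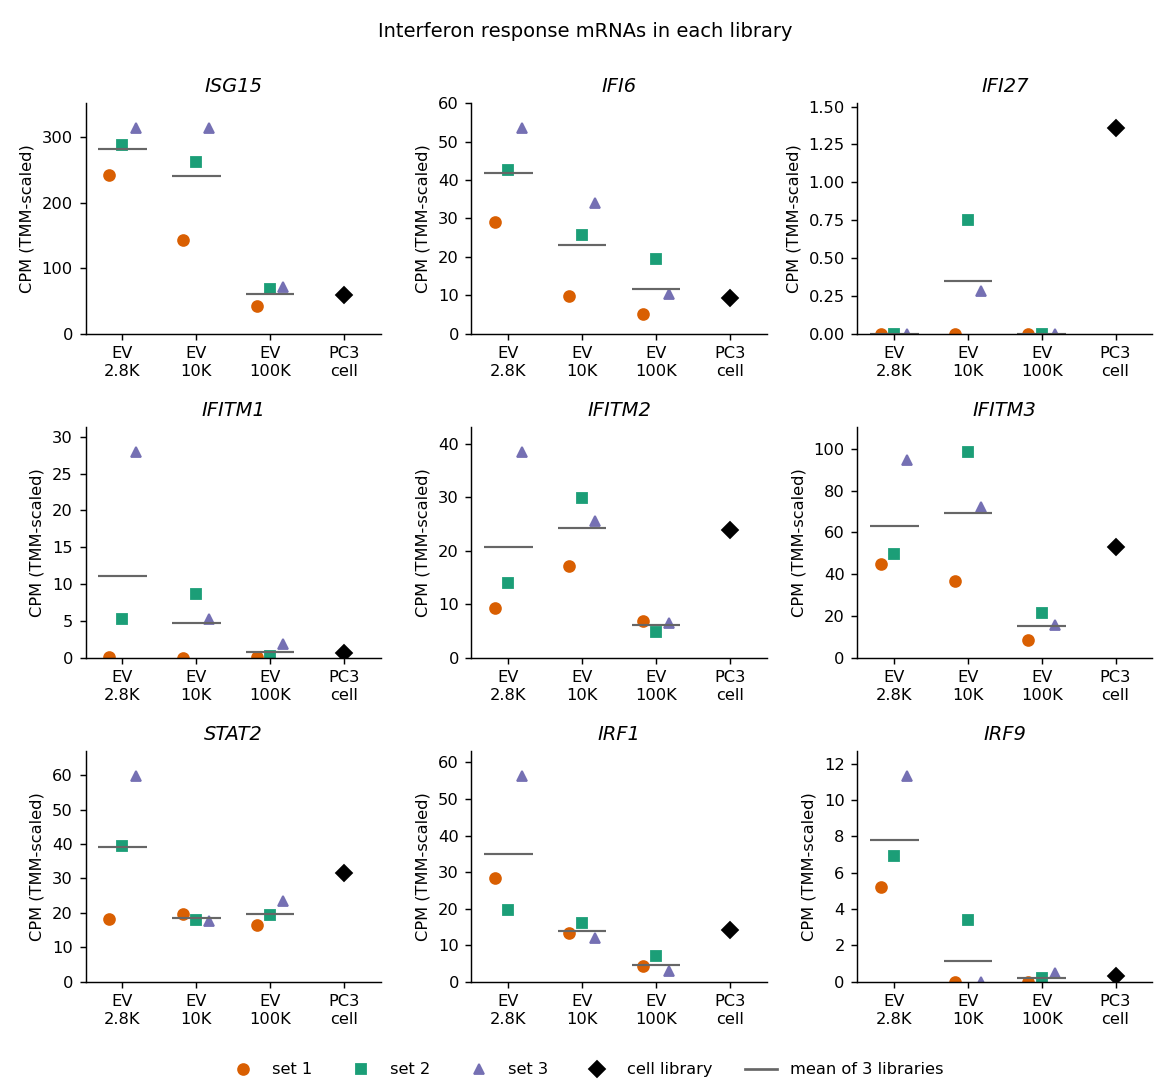
Levels of the 9 members in each library, 1 panel per gene, as TMM-scaled CPM on linear axes that differ between panels. Circles, squares and triangles are sets 1, 2 and 3, the bars are means of 3 libraries and the diamond is the cell library; for ISG15, EV 100K sits at 42.1 to 72.0 CPM, near the cell value of 59.4 and below all other EV libraries.

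ISG15 encodes a ubiquitin-like protein that is attached to other proteins during an interferon response. Its mRNA was at 242.2, 288.2 and 314.5 CPM in EV 2.8K and at 143.7, 262.4 and 314.5 CPM in EV 10K. In EV 100K it was at 42.1, 68.7 and 72.0 CPM, and in cells at 59.4 CPM. The EV 2.8K and EV 10K libraries overlapped, while all EV 100K libraries lay below both. The means were 282 ± 36.6, 240 ± 87.6 and 60.9 ± 16.4 CPM (SD, n = 3 each). The level in EV 100K was lower than in EV 2.8K by a log2 fold change of -2.22 (SE 0.28, 95% interval -2.81 to -1.62, adjusted p = 1.14e-05 by edgeR). Against EV 10K the log2 fold change was -1.99 (SE 0.28, adjusted p = 0.000159 by edgeR), and EV 10K did not differ from EV 2.8K at the threshold (-0.23, interval -0.79 to 0.33).

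IFI6 encodes a small membrane protein of the endoplasmic reticulum and mitochondria with antiviral and antiapoptotic effects. Its mRNA was at 29.2, 42.6 and 53.6 CPM in EV 2.8K, at 9.89, 25.6 and 34.0 CPM in EV 10K and at 5.19, 19.4 and 10.3 CPM in EV 100K. Cells were at 9.44 CPM. The EV 100K libraries lay below all EV 2.8K libraries, and EV 10K overlapped both. EV 100K was lower than EV 2.8K by a log2 fold change of -1.85 (SE 0.52, adjusted p = 0.0135 by edgeR). The call was lost without EV 2.8K set 3 (adjusted p = 0.0556) or without EV 100K set 1 (0.0726). Against EV 10K the log2 fold change was -1.0 with an interval of -2.09 to 0.08 and did not pass.

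IFI27, a mitochondrial and nuclear membrane protein that is among the strongly induced genes in blood during viral infection, was nearly undetected in vesicles. It had 47 counts in cells (1.36 CPM), 6 counts in EV 10K set 2 and 3 in EV 10K set 3. The other 7 EV libraries held 0 counts. A count of 0 over the 3 libraries allows up to 0.0728 CPM in EV 2.8K and 0.159 CPM in EV 100K, taking 3 counts over the group as the floor. Taking the cell value as 1.36 CPM, IFI27 was therefore at least 18.7-fold lower in EV 2.8K and at least 8.56-fold lower in EV 100K. These bounds cover counting error in the pellets only. The 47 counts in cells have a 95% Poisson interval of 1.00 to 1.81 CPM, which the bounds leave out.

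The IFITM proteins sit in cell and endosome membranes and hinder the fusion of viruses with them. IFITM3 was at 44.9, 49.7 and 94.6 CPM in EV 2.8K, at 36.6, 98.7 and 72.3 CPM in EV 10K, at 8.56, 21.4 and 15.9 CPM in EV 100K and at 53.0 CPM in cells. All EV 100K libraries were below every other library. The log2 fold change of EV 100K was -2.05 (SE 0.42, adjusted p = 0.00129 by edgeR) against EV 2.8K and -2.19 (SE 0.43, adjusted p = 0.00235 by edgeR) against EV 10K.

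IFITM2 was at 9.39, 13.9 and 38.6 CPM in EV 2.8K, at 17.2, 29.8 and 25.7 CPM in EV 10K, at 6.87, 4.77 and 6.51 CPM in EV 100K and at 23.8 CPM in cells. Again all EV 100K libraries were below every other library, but EV 2.8K spread over a wide range, with set 3 far above sets 1 and 2. The log2 fold change of EV 100K was -1.77 against EV 2.8K (SE 0.56, adjusted p = 0.0259 by edgeR) and -2.0 against EV 10K (SE 0.57, adjusted p = 0.0272 by edgeR). Without EV 2.8K set 3, the log2 fold change against EV 2.8K was -0.91 (adjusted p = 0.252). The call against EV 2.8K was also lost without EV 100K set 1, 2 or 3 (0.0681, 0.105 and 0.0704) and when the 6 libraries of these pellets were fitted alone (0.0641). A replicate block of set numbers removed this call too, as given in the last section. The call against EV 10K was lost without EV 10K set 2 or 3 (0.107 and 0.0844) or EV 100K set 1, 2 or 3 (0.0809, 0.116 and 0.0849).

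IFITM1 varied widely within pellets. It was at 0.0764, 5.25 and 28.0 CPM in EV 2.8K, at 0, 8.67 and 5.30 CPM in EV 10K and at 0.140, 0.183 and 1.91 CPM in EV 100K. Cells were at 0.637 CPM, from 22 counts. Set 1 was lowest in each pellet, at no more than 1 count per library. The log2 fold change of EV 100K against EV 2.8K was -3.88 with an interval of -7.63 to -0.14, and it did not pass (SE 1.78, adjusted p = 0.124 by edgeR). Without EV 2.8K set 1 it did (0.0227), as it did with DESeq2 (0.0466).

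The IFITM values share a limit. IFITM1 shares 32.5% of its exon bases with IFITM2 on the same strand, and IFITM2 shares 22.8% with IFITM1. Of the stretches of 50 bases in their transcripts, 12.9% of those of IFITM2 and 9.18% of those of IFITM1 also occur in IFITM3. Of those of IFITM3, 14% also occur in IFITM2 and 7.3% in IFITM1. The sources used here do not say how the counting treated reads that fit several genes, so the split between these genes is uncertain.

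STAT2, a part of ISGF3, did not differ between pellets at the threshold. It was at 18.2, 39.4 and 59.9 CPM in EV 2.8K, at 19.7, 18.0 and 17.6 CPM in EV 10K, at 16.4, 19.4 and 23.4 CPM in EV 100K and at 31.6 CPM in cells. EV 2.8K overlapped the other pellets through set 1 alone. The log2 fold change was -1.08 for EV 10K against EV 2.8K (SE 0.43, adjusted p = 0.151 by edgeR) and -0.99 for EV 100K against EV 2.8K (SE 0.43, adjusted p = 0.100 by edgeR). Both passed without EV 2.8K set 1, at -1.43 (adjusted p = 0.0184) and -1.33 (0.00945). EV 100K and EV 10K differed by 0.09 on the log2 scale, with an interval of -0.81 to 0.99.

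IRF1, a transcription factor that interferon gamma induces through its GAS, was at 28.4, 19.7 and 56.4 CPM in EV 2.8K. It was at 13.2, 16.1 and 12.03 CPM in EV 10K, at 4.21, 6.97 and 2.86 CPM in EV 100K and at 14.3 CPM in cells. The 3 pellets did not overlap and lay in the order of the speeds. EV 100K was lower than EV 2.8K by a log2 fold change of -2.90 (SE 0.55, 95% interval -4.06 to -1.75, adjusted p = 0.000607 by edgeR). The steps in between did not pass: EV 10K against EV 2.8K was at -1.34 (adjusted p = 0.140) and EV 100K against EV 10K at -1.57 (0.0681). The latter passed without EV 2.8K set 1 (0.0389) and with DESeq2 (0.0417).

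IRF9, the DNA-binding part of ISGF3, was detected mainly in EV 2.8K, at 5.19, 6.94 and 11.3 CPM. In EV 10K set 2 it was at 3.39 CPM (27 counts) and in EV 10K sets 1 and 3 at 0. The EV 100K libraries held 4 counts in all (0, 0.183 and 0.477 CPM), and the cell library 11 counts (0.318 CPM). All EV 10K and EV 100K libraries were below all EV 2.8K libraries. The edgeR test of EV 100K against EV 2.8K did not pass (adjusted p = 0.0848, SE of the log2 fold change 2.10), while DESeq2 passed it (0.0153), as did edgeR on the 6 libraries of these pellets alone (0.0243). IRF9 entered these tests only through EV 2.8K, where it is high, so passing them adds no support. The pooled level was 7.62 CPM in EV 2.8K (95% Poisson interval 6.80 to 8.51, counting error only) and 0.212 CPM in EV 100K (0.0577 to 0.542). IRF9 shares 48.4% of its exon bases with the readthrough gene AL136295.5 on the same strand. That gene was at 0 to 0.241 CPM in EV 2.8K, 0 to 1.27 in EV 100K and 2.37 in cells, so it exceeded IRF9 in cells and lay below it in EV 2.8K.

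**Figure D2:**
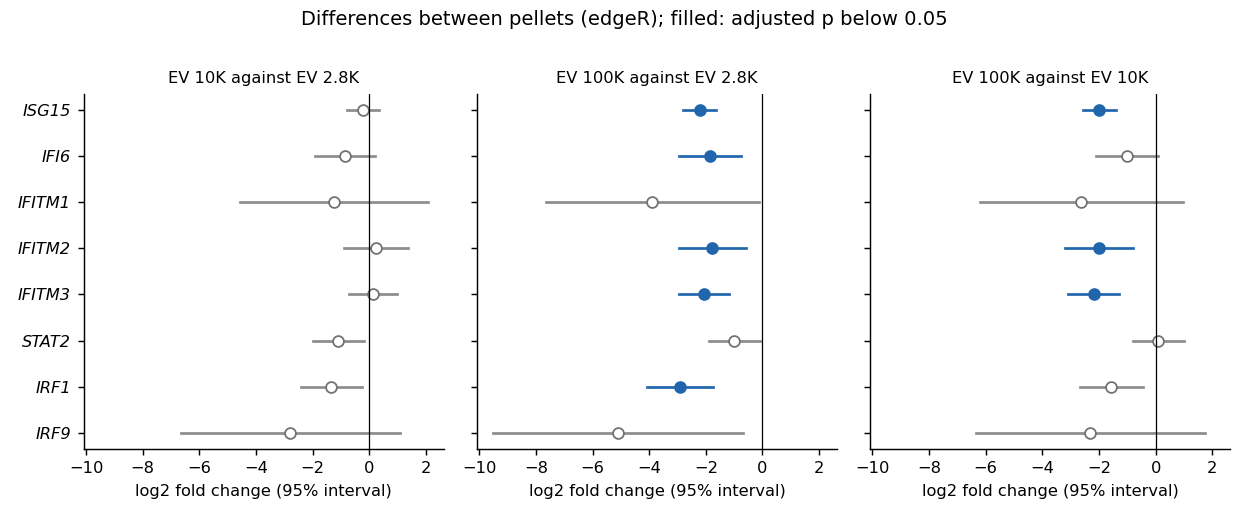
Differences between pellets for the 8 members tested, 1 panel per comparison, as edgeR log2 fold changes with 95% intervals. Filled points have an adjusted p below 0.05: none in EV 10K against EV 2.8K, 5 in EV 100K against EV 2.8K and 3 in EV 100K against EV 10K, all to the left of 0; the widest intervals are those of IFITM1 and IRF9.

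Without overlap between libraries, EV 100K was below EV 2.8K for ISG15, IFI6, IFITM2, IFITM3 and IRF1, where 21% of all genes tested were. IRF9 is left out of these counts, since it entered the test only through its level in EV 2.8K. It was below EV 10K for 4 (ISG15, IFITM2, IFITM3 and IRF1), against 16.7% of all genes. EV 10K was below EV 2.8K for IRF1, against 10.1%. No member lay above without overlap in these comparisons, where 23.5%, 19.2% and 11.4% of all genes did, in the same order. The comparisons share libraries, so these counts are not independent of each other.

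Per kilobase of exon, ISG15 was the most abundant member in EV 2.8K, at 299 ± 38.9 CPM per kb (SD, n = 3), with no library overlapping another member. IFI6 (48.3 ± 14.2) and IFITM3 (46.8 ± 20.3) followed and did not differ beyond their spread. Below them came IFITM2 (13.4 ± 10.2), IFITM1 (10.3 ± 13.7), STAT2 (6.41 ± 3.41), IRF1 (4.47 ± 2.46) and IRF9 (2.06 ± 0.84), each overlapping its neighbours in this order, and IFI27 at 0. In EV 100K, ISG15 was again highest at 64.8 ± 17.4 CPM per kb, and IFI6 (13.5 ± 8.34) and IFITM3 (11.3 ± 4.80) again overlapped. In cells the order began with ISG15 at 63.1, IFITM3 at 39.3 and IFITM2 at 15.4 CPM per kb, ahead of IFI6 at 10.9. The lengths are unions of all annotated exons, 4147 bases for IFI27 and 7799 for IRF1, and which exons the libraries use was not measured.

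The question of how vesicle pellets differ from the cells that shed them could be described but not tested, because the cell library has no replicate. A member was counted as higher or lower where all 3 libraries of a pellet lay more than 2-fold to the same side of the cell value and the pellet mean or the cell value reached 1 CPM. IRF9 and IFITM1 reached 1 CPM only in pellets, and IFI27 only in cells. The side on which each could pass was thus fixed, so they are not counted here. In EV 2.8K, ISG15 and IFI6 were higher, where 3.9% of 17509 genes were. ISG15 was 4.08 to 5.30 times the cell level and IFI6 3.09 to 5.68 times. IRF9, not counted, was at 16.3 to 35.6 times, against 11 counts in cells. Apart from IFI27, no member was lower (9.36% of genes). In EV 10K, only ISG15 was higher, at 2.42 to 5.30 times the cell level, where 6.44% of 16952 genes were higher. On CPM of the raw totals no member was higher in EV 10K, and STAT2 was lower. Without EV 10K set 1, IFI6 was higher as well. In EV 100K no member was higher (13.4% of 16656 genes), while IFITM2, IFITM3 and IRF1 were lower (18.5% of genes). IFITM2 was at 0.200 to 0.289 of the cell level, IFITM3 at 0.161 to 0.404 and IRF1 at 0.200 to 0.488. ISG15 was at 0.709 to 1.21 of the cell level there. In EV 2.8K and EV 10K, IFITM2 and IFITM3 lay within 2-fold of cells, except for IFITM2 in EV 2.8K set 1 at 0.395 of the cell level.

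**Figure D3:**
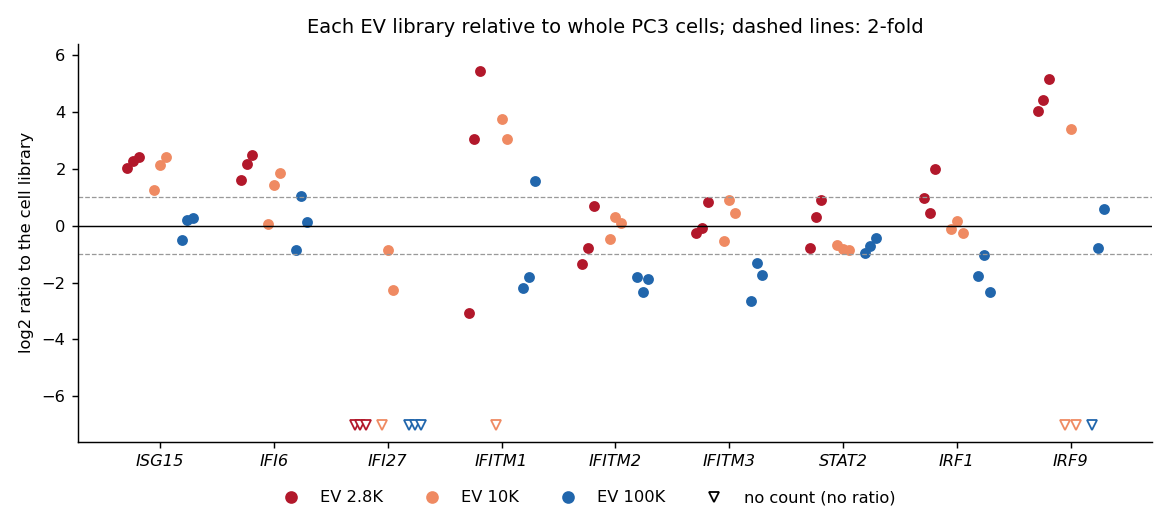
Log2 ratio of each EV library to the single cell library for the 9 members, 3 points per pellet, with dashed lines at 2-fold. Open triangles at the bottom mark libraries without a count, which have no ratio; ISG15, IFI6 and IRF9 in EV 2.8K lie wholly above the upper line, and IFITM2, IFITM3 and IRF1 in EV 100K wholly below the lower one.

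The rest of the interferon pathway was read from 6 lists of 100 further genes. Of these, 77 were tested. In EV 100K against EV 2.8K, 19 were lower and 2 higher (27.3% called, against 25.8% of all genes), with a median log2 fold change of -0.86 beside -0.06 over all genes. In EV 100K against EV 10K, 5 were lower and 1 higher (7.79%, against 10.9% of all genes), with a median of -0.41. In EV 10K against EV 2.8K, edgeR called 1, IFIT2, as lower, and DESeq2 called 3. The share called, both directions together, was near or below the background in each comparison. By direction in EV 100K against EV 2.8K, the 19 lower and 2 higher of 77 stand beside 13.8% lower and 12% higher of all genes. The first count was 13 in all without EV 100K set 1. The second was 12 without EV 2.8K set 1 and 3 without EV 10K set 3. The third was 0 without EV 10K set 3 and 2 without EV 10K set 2 or EV 2.8K set 3.

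Few counts fell on the interferon genes listed. Of 10 ligand genes, 7 had no count in any library and none could be tested. In EV 2.8K, IFNL1 had 41 counts, IFNE 30 and IFNB1 7, and of these only IFNE had counts in other groups. Of 8 tested receptor and kinase genes, 2 fell from EV 2.8K to EV 100K, namely JAK1 and IFNGR2, a chain of the interferon gamma receptor, named here after its value was seen. JAK1, the kinase shared by all interferon receptors, had a log2 fold change of -1.98 (SE 0.26, adjusted p = 1.60e-05 by edgeR) against EV 2.8K and of -1.35 (adjusted p = 0.00191) against EV 10K. The median of the list was 0.10.

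Of 9 tested sensors and adaptors of nucleic acid sensing, 2 were lower and 1 higher in EV 100K than in EV 2.8K. MAVS, the mitochondrial adaptor of the RIG-I pathway, was higher in EV 100K, with a log2 fold change of 1.14 (SE 0.21) against each of EV 2.8K (adjusted p = 0.000496 by edgeR) and EV 10K (0.00171). DDX58, which encodes the RNA sensor RIG-I, was lower than in EV 2.8K at -1.86 (SE 0.52, adjusted p = 0.0121 by edgeR), a call lost without EV 100K set 1 (0.0583). TICAM1, the adaptor of the toll-like receptor TLR3, was lower at -1.28 (SE 0.40, adjusted p = 0.0232 by edgeR) but did not pass without EV 2.8K set 1 or 2 or EV 100K set 1 or 2 (adjusted p = 0.0532 to 0.133).

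Of 5 other transcription factors tested, 2 fell from EV 2.8K to EV 100K, of which 1 is described here. IRF7, which drives the transcription of type I interferon genes, had a log2 fold change of -2.22 (SE 0.65, adjusted p = 0.0165 by edgeR), lost without EV 2.8K set 2 or EV 100K set 1 or 3 (0.0623 to 0.0994).

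The 46 other induced effectors tested are the longest list, with 13 lower and 1 higher in EV 100K than in EV 2.8K, beside 13.8% lower and 12% higher of all genes. Their median log2 fold change was -1.18. LGALS3BP, a secreted glycoprotein found on vesicle surfaces, was lower at -3.55 (SE 0.53, adjusted p = 6.88e-05 by edgeR). IFIT1 and IFIT2, which bind viral RNA, were lower at -2.03 (SE 0.43, adjusted p = 0.00170 by edgeR) and -1.02 (SE 0.26, 0.00762). OASL, a relative of the oligoadenylate synthetases, was lower at -3.12 (SE 0.73, adjusted p = 0.00352 by edgeR). In EV 10K too, IFIT2 was below EV 2.8K (-1.20, SE 0.27, adjusted p = 0.00953 by edgeR), a call lost without EV 10K set 3 (0.0658). Against EV 10K, LGALS3BP (-2.44, adjusted p = 0.00435), OASL (-3.40, 0.00526) and IFIT1 (-1.56, 0.0228) were lower in EV 100K. The OASL call was lost without EV 10K set 3 (0.0604), and the IFIT1 call without EV 10K set 2 or 3 or EV 100K set 1 (0.0926 to 0.125). Of 9 inhibitors of the pathway, edgeR called 0 in any pairwise comparison, and SOCS3, a feedback inhibitor of JAK kinases, passed the joint test at an adjusted p of 0.0498.

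**Figure D4:**
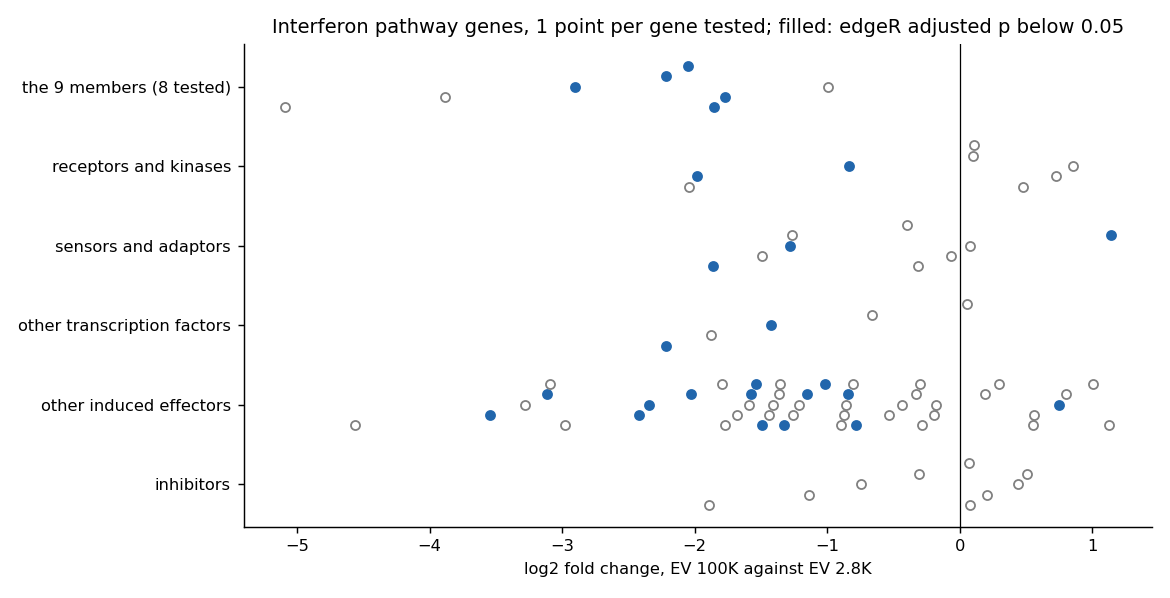
Log2 fold change of EV 100K against EV 2.8K for the 8 tested members and the 77 tested genes of the other interferon lists, 1 point per gene. Filled points have an edgeR adjusted p below 0.05, and vertical offsets within a row only separate points; of the members 5 are filled, all left of 0, and the rows of receptors and kinases and of inhibitors spread over both sides of 0.

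Against the cell library, 5 of the 80 listed genes at 1 CPM or more were more than 2-fold higher in all EV 2.8K libraries and 2 more than 2-fold lower, beside 3.9% and 9.36% of all genes. Among the higher ones were MX1 at 3.73 to 13.2 times and IFIT2 at 4.10 to 7.22 times the cell level, both named after their values were seen. In EV 10K, 2 of 78 were higher and 2 lower, beside 6.44% and 12.9% of all genes. In EV 100K, 4 of 75 were higher and 10 lower, beside 13.4% and 18.5%. IFIT2 was higher there too, at 2.41 to 2.80 times the cell level, whereas none of the 9 members was. Some of the higher genes were below 1 CPM in cells: MX2 and TRIM22 in EV 2.8K, and IFI44L and RSAD2 in EV 10K and EV 100K. They reached 1 CPM only in the pellet, so the side on which they could pass was fixed. In EV 10K these were the only higher genes.

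Over the 9 EV libraries, pairs of the 8 tested members had Pearson correlations of log2 CPM from 0.396 (IFITM3 and STAT2) to 0.950 (ISG15 and IFITM3). These libraries share pellet and set, and the values are a description. Among 12013 protein-coding genes, the gene most alike was UBA1 for ISG15 (r = 0.987), SCARB2 for IFI6 (0.961), PHF6 for IFITM1 (0.960), EXOC1 for IFITM2 (0.973) and CBR1 for IFITM3 (0.979). For the transcription factors it was LRRC15 for STAT2 (0.965), SERPINE2 for IRF1 (0.983) and LIPA for IRF9 (0.977).

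Set 1 stood low for several interferon genes in all 3 pellets, a pattern noticed after the data were seen. ISG15, IFI6, IFITM1 and IFITM3, 4 of the 8 tested members, were lowest in the set 1 library of every pellet, while 5.42% of the 15525 genes tested were. The count of members was also 4 on CPM of the raw totals, where 10.4% of all genes were lowest in set 1. For sets 2 and 3 the number of members was 0, against 2.95% and 3.84% of all genes. Of the 77 other interferon genes tested, 12 (15.6%) were lowest in set 1 of every pellet, among them MX1 and IRF7. MX1, a dynamin-like GTPase that blocks viral replication, was at 18.8, 38.1 and 66.6 CPM in sets 1, 2 and 3 of EV 2.8K. It was at 6.0, 40.6 and 45.9 CPM in EV 10K, at 3.23, 12.3 and 20.3 CPM in EV 100K and at 5.04 CPM in cells. IFITM2, STAT2 and IRF1 did not show the pattern. IRF9 was lowest in set 1 of EV 2.8K and EV 100K and tied at 0 counts with set 3 in EV 10K. A term for the set number, added after seeing the data, gave 0 members with an edgeR adjusted p below 0.05 (0.0258% of all genes had one), and 4 of 8 with an unadjusted p below 0.05, where 4.95% of all genes did. The test was prompted by the pattern, so the unadjusted count restates it and adds no support. EV 2.8K set 1 also held the highest share of mitochondrially encoded RNA of any library (12.9% of counts), and its part in the pattern was not tested.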

How the data were processed

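Total RNA of 9 EV libraries and 1 library of whole PC3 cells was sequenced after preparation with a SMARTer stranded total RNA kit, per the labels' protocols. The submitters' processing notes name bcl2fastq 2.19.1.403, cutadapt 2.7, STAR 2.6.1d, featureCounts 1.6.3 and GRCh38. The authors deposited raw counts per entry, not normalized. The sources used here do not name the annotation, the strand setting or the handling of reads with several matches. Of the 94946 entries, 45574 carry GENCODE 29 identifiers.

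The members and lists were chosen with earlier results of these data known. Groups and set numbers came from the sample titles. Counts were tested with edgeR 4.0.16 under R 4.3.3, on the 9 EV libraries with pellet as the only term. Low counts were removed with filterByExpr (minimum count 10, by pellet), scaling was TMM, and the quasi-likelihood F-test was robust with 6 residual degrees of freedom. Alternatives used DESeq2 1.42.0, other filters, scalings and library choices. Correlations used log2 of CPM plus 1. All members are named, as are up to 4 genes per other list with the smallest joint p among those that passed, though a few of these go unreported here. The scripts were tested on simulated counts. Promoter sequences are from RefSeq. Figures were drawn with matplotlib 3.10.9.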

Additional observations from a re-analysis of the deposited data

How the results depend on the processing

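Of the called members, ISG15, IFITM3 and IRF1 in EV 100K against EV 2.8K, and ISG15 and IFITM3 in EV 100K against EV 10K, passed under all 18 alternatives, whereas the calls of IFI6 and IFITM2 were lost without the libraries named above, and that of IFITM2 against EV 2.8K also with the 6 libraries compared (adjusted p = 0.0641) and the replicate block. Leaving out each library in turn gave 0 to 1 members called in EV 10K against EV 2.8K, 3 to 7 in EV 100K against EV 2.8K (7 without EV 2.8K set 1, 3 without EV 2.8K set 3 or EV 100K set 1), 2 to 4 in EV 100K against EV 10K and 3 to 6 in the joint test (3 without EV 100K set 1 or 3). It gave 557 (without EV 10K set 1) to 1173 calls of all genes in EV 10K against EV 2.8K, beside 990 with all libraries, and 979 (without EV 100K set 1) to 2549 (without EV 2.8K set 1) in EV 100K against EV 10K, beside 1697 (1033 without EV 10K set 3, 1017 without EV 100K set 3), and 0 to 2, 13 to 24 and 3 to 12 of the other interferon genes in the 3 comparisons (1, 21 and 6). Past 2-fold from cells in EV 10K, with IFITM1, IRF9 and IFI27 again not counted, was ISG15 alone with all libraries. Without EV 10K set 1 it was ISG15 and IFI6, and on raw totals STAT2 alone, as lower. All-gene calls in EV 10K against EV 2.8K were 1635 with DESeq2 and 561 with the 6 libraries compared, and in EV 100K against EV 10K 2777 with those 6. Other interferon genes in EV 10K against EV 2.8K numbered 3 with DESeq2, without a filter or with all 10 libraries, and 4 with the replicate block; in EV 100K against EV 10K they numbered 13 with the 6 libraries and 10 with all 10. Uncalled differences changed sign when a library was left out: for EV 10K against EV 2.8K, ISG15 ranged from -0.41 to 0.036, IFITM1 from -1.99 to 0.85, IFITM2 from -0.11 to 1.10 and IFITM3 from -0.15 to 0.59 (-0.058 without EV 2.8K set 1), and for EV 100K against EV 10K, STAT2 from -0.044 to 0.21 and IRF9 from -3.54 to 4.22. The causes were not tested. Pairing of the libraries by set number was weak over all genes. Deviations of same-numbered libraries correlated at -0.016 to 0.072 and were mostly positive. Those of other pairs correlated at -0.057 to 0.046 and were mostly negative. Deviations sum to 0 within a pellet, so positive same-numbered pairs tend to make the others negative, and the signs are not separate observations. A replicate block of set numbers gave 1075, 3964 and 1875 calls and removed that of IFITM2 in EV 100K against EV 2.8K (-1.56, adjusted p = 0.0530). Low counts limit IFITM1, IRF9 and IFI27, most of all in EV 100K, which holds the 2 libraries with the fewest counts.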
